A study of Mus musculus with 12 samples.

Results

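Expression was compared between mT69a and mT6, both mouse pancreatic tumour organoid lines, after an SPDEF vector had been put into an Spdef-knockout clone of each. Members were chosen by title alone: 2 libraries of mT69a and 2 of mT6, together 4 of the 12 libraries of the series. Autosomal genes were then sorted into those that still differed between the lines with the vector and those brought to a similar level. Both lines were grown from KPC tumours, which carry KrasLSLG12D/+, Trp53LSLR172H/LOH and Pdx1-Cre on a C57/Bl6 background. Pdx1-Cre switches on the mutant alleles in pancreatic progenitors, and LOH marks loss of the remaining Trp53 allele. The other 8 libraries served as reference. In each line 2 came from the same kind of Spdef-knockout clone with an empty vector (here, knockout) and 2 from a clone in which the Rosa26 safe-harbour locus was targeted, also carrying the empty vector (control). The labels name 1 clone of each genotype in each line, so effects of line, clone and vector insertion cannot be told apart. Whether a group's libraries were separate cultures is not stated, so p-values measure the spread between these libraries, which may be technical. In bulk RNA, fewer cells of a type and less RNA per cell cannot be told apart either.

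SPDEF belongs to the ETS family of transcription factors and is made by epithelia that secrete mucus. In intestine and airway it acts in the maturation of goblet cells, which load secretory granules with mucins and need a large endoplasmic reticulum to fold them. The mucin gel is built from heavily O-glycosylated proteins, made with the help of folding enzymes such as Agr2 and of glycosyltransferases in the Golgi.

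The SPDEF-labelled libraries held 9111713 and 9094295 expected counts in mT6 and 16700860 and 13223601 in mT69a. Mitochondrial genes took 15.1% and 27.1% of counts in the mT6 pair and 15.1% and 18.6% in the mT69a pair. Levels below are CPM, which scales counts by library size and composition, and paired values are libraries 1 and 2. The 5 epithelial markers summed to 3350 to 5599 CPM in the SPDEF-labelled libraries, while 12 fibroblast markers summed to at most 0.722 CPM. Mouse Spdef was near 0 in all 4, with 0.117 and 0 CPM in mT6 and 0.119 and 0 CPM in mT69a. The mouse gene therefore does not check the vector, and the libraries are called SPDEF-labelled throughout. In control it had 2.28 and 1.04 CPM in mT6 but 0.125 and 0.269 CPM in mT69a. It was thus lower in the SPDEF-labelled libraries than in control in mT6, and too low in mT69a control for such a comparison. RNA level alone does not verify the knockout label in either line.

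With the vector in both lines, 2514 of 14047 autosomal genes tested differed between them (17.9%; edgeR's quasi-likelihood test, Benjamini-Hochberg adjusted p under 0.05). Of these, 1209 were higher in mT69a and 1305 lower. Differences also over 2-fold were found for 1291 genes (9.19%), 573 higher (4.08%) and 718 lower (5.11%), and such genes are called parted. The same count was 1661 in knockout (11.8%) and 2023 in control (14.4%). At the adjusted p alone, 3564 genes differed in knockout (25.4%) and 3959 in control (28.2%). Depth was unequal between these comparisons. In mT6 the SPDEF-labelled pair held 9111713 and 9094295 counts, knockout 10897005 and 21670653 and control 11589956 and 28903831. In mT69a the pairs held 16700860 and 13223601, 15566407 and 11612907, and 15350815 and 14724534. The part of depth in the lower count with the vector was not tested. A model that paired libraries by replicate number called 4269 genes with the vector (30.4%) and 5526 in knockout (39.3%). With limma on log2(TPM + 1), 819 passed with the vector. Without the first mT69a SPDEF-labelled library the count of 2514 fell to 909, and without the second to 1230. Without either mT6 SPDEF-labelled library it was 1862 or 1642.

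Of the 1291 parted genes, 978 were also parted in knockout in the same direction (6.96% of all tested). They are 75.8% of those parted with the vector and 58.9% of those parted in knockout. Of the 1661 genes parted in knockout, 515 (31%) stayed undecided. They did not pass with the vector and did not meet the rule below for a similar level. No gene was parted in opposite directions in these edgeR comparisons, and 1278 of the 1291 had the same sign in knockout. Against control, 748 were parted in the same direction and 50 in the opposite one. A set of 628 genes (4.47%) was parted in the same direction with the vector, in knockout and in control. Between SPDEF-labelled and knockout libraries of 1 line, 379 genes differed in mT6 (2.7%), 218 higher with the vector (1.55%) and 161 lower (1.15%). In mT69a 600 differed (4.27%), 366 higher (2.61%) and 234 lower (1.67%). With libraries paired by replicate number, 1015 of the 14047 genes differed in mT6 and 1491 in mT69a. A gene said below to rise or fall in a line passed the unpaired test. The median size of the line difference over the 1661 genes parted in knockout was 1.93 on the log2 scale in knockout and 1.53 with the vector, a fall that choosing genes by the knockout value favours. Across the 14047 genes, Pearson's r between the line differences with the vector and in knockout was 0.772. It was 0.578 between vector and control. These correlations are across genes, which are not independent, and each comparison used separate libraries.

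**Figure D1:**
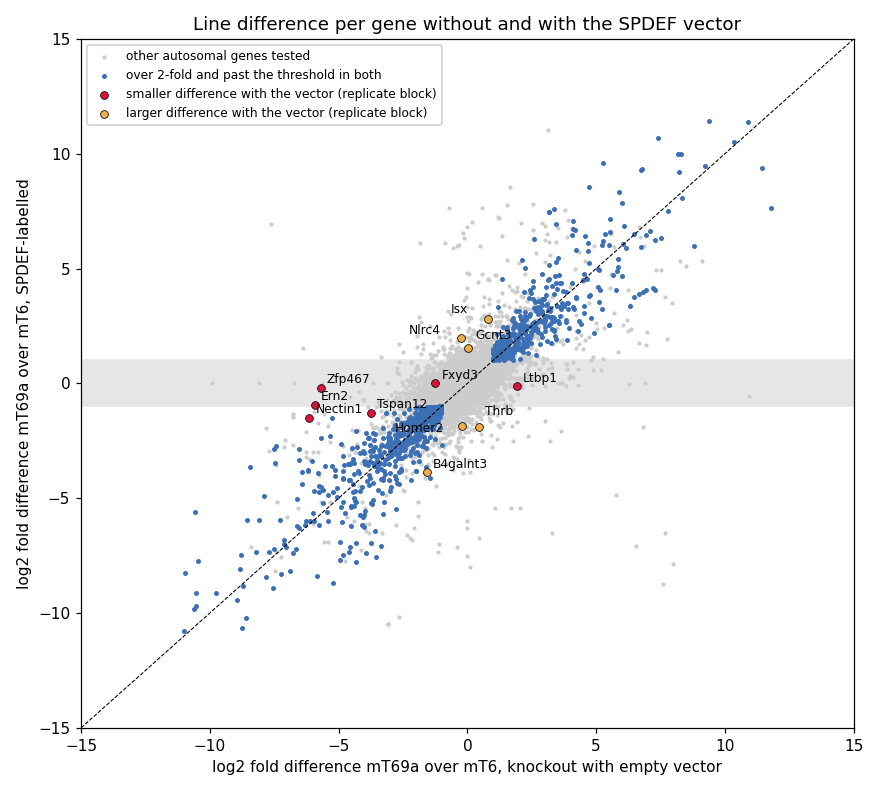
Fitted log2 difference between the lines (mT69a over mT6) for each autosomal gene tested, in knockout on the horizontal axis and in the SPDEF-labelled libraries on the vertical axis. Blue points are the 978 genes parted in both, the grey band is a 2-fold range around no difference, and most blue points lie near the dashed line of equality while Ltbp1, Fxyd3 and Zfp467 lie inside the band.

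Genes brought together were those parted in knockout whose line difference changed with the vector and whose 95% interval then lay within 2-fold. A gene of this group could still pass the test of the line difference with the vector. The test of the change called 2 of 14047 genes (0.0142%), with 694 at an unadjusted p under 0.05. One was Nectin1, a cell adhesion molecule of the immunoglobulin superfamily. The other, Gm27177, is annotated as an antisense RNA, and whether counting used strand is not given in the sources used here. With libraries paired by replicate number 55 genes passed (0.392%). The line difference shrank with the vector in 38 of them and grew in 17. DESeq2 called 45, of which 34 were among the 55. The paired model placed 11 genes in the group brought to a similar level, where the unpaired model placed Gm27177 alone (0.00712%). In simulated counts with known changes, the unpaired test of the change recovered 13% of 2-fold and 49% of 4-fold changes. A gene it did not call may therefore still have changed.

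Nectin1 had 21.6 and 21.2 CPM in mT6 knockout against 0.376 and 0.174 CPM in mT69a knockout. With the vector it had 66.0 and 61.0 CPM in mT6 and 21.7 and 22.8 CPM in mT69a. It thus rose in both lines but further in mT69a, and the SPDEF-labelled libraries of the lines still did not overlap. Its log2 difference went from -6.13 to -1.51, a change of 4.62 ± 0.50 (SE; edgeR adjusted p = 0.00824). Leaving out 1 library at a time kept this call in 9 of 12 fits. The adjusted p was 0.102 and 0.0947 without the first or second mT69a knockout library and 0.0533 without the second mT69a SPDEF-labelled one. In control Nectin1 was also low in mT69a, at 1.13 and 0.539 CPM against 22 and 30.5 CPM in mT6. Its level in mT69a with the vector was therefore above that line's own control. Gm27177 had 6.19 and 7.68 CPM in mT6 knockout and 0.323 and 0.435 CPM in mT69a knockout. With the vector it had 5.73 and 7.16 CPM in mT6 and 4.75 and 5.14 CPM in mT69a, close to the control range of 4.19 to 5.75 CPM over both lines. Its change was 3.83 ± 0.44 (adjusted p = 0.0191), a call kept in 5 of 12 fits that left out 1 library. The adjusted p was 0.258 when the first mT69a knockout library was omitted, and it lay between 0.057 and 0.12 without the second mT69a or second mT6 knockout library or any 1 of the 4 SPDEF-labelled ones. Neither gene's change passed with limma on TPM. With log2(TPM + 0.1) the change was 2.65 for Nectin1 (adjusted p = 0.863) and 1.51 for Gm27177 (0.829). The added constant shrinks log2 differences of low values, and its part in the lost calls was not tested.

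Genes brought together fell into 2 patterns by line. In the first, a gene's level went up further with the vector in the line where knockout was lower, which was mT69a. Fxyd3, a regulator of the sodium-potassium pump, had 26.2 and 24.6 CPM in mT6 knockout and 11.4 and 9.83 CPM in mT69a knockout. The SPDEF-labelled libraries had 79.9 and 76.2 CPM in mT6 and 77.3 and 78.7 CPM in mT69a, so the lines overlapped. The line difference with the vector was 0.00 (95% interval -0.30 to 0.30), against -1.25 in knockout. The change had an adjusted p of 0.11 unpaired and 0.0116 with libraries paired by number.

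Zfp467, a zinc finger transcription factor, had 1.59 and 2.56 CPM in mT6 knockout but 0.0538 and 0 CPM in mT69a knockout. With the vector it reached 12.7 and 17.3 CPM in mT6 and 12.8 and 13.4 CPM in mT69a. It had 0 counts in both mT69a control libraries, so that line's level with the vector lay outside its own control range. The change had an adjusted p of 0.182 unpaired and 0.0116 paired. Foxa3, a forkhead factor of goblet and other endodermal cells, had 1.68 and 1.82 CPM in mT6 knockout and 0.806 and 0.522 CPM in mT69a knockout. It reached 17.5 and 13.7 CPM in mT6 and 24.3 and 22.2 CPM in mT69a with the vector. The order of the lines was then the opposite of that in knockout, with a difference of 0.57 ± 0.21 (adjusted p = 0.084 unpaired, 0.02 paired). The change passed with pairing alone (adjusted p = 0.239 unpaired, 0.0367 paired). Pld1, which makes the lipid messenger phosphatidic acid, moved in mT69a from 4.84 and 4.35 CPM in knockout to 22.5 and 24.1 CPM, beside 23.5 and 27.5 CPM in mT6. Cpne2, a copine on chromosome 8, Lrig1 and Ephb2 were the other genes of this pattern in the paired model. Lrig1, a negative regulator of EGF receptor signalling, went from a log2 difference of -2.03 to -0.62, and Ephb2, an ephrin receptor of intestinal crypts, from -1.24 to -0.36. In that paired model the line differences of Cpne2, Lrig1 and Ephb2 with the vector still passed, so these lines came within 2-fold but still differed.

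In the second pattern a gene that was higher in mT69a knockout fell in that line with the vector. Ltbp1, which stores latent TGF-beta in the matrix, had 78.1 and 73.5 CPM in mT69a knockout and 19.9 and 19.8 CPM in mT6 knockout. With the vector it had 13.3 and 15.6 CPM in mT69a and 15.2 and 16.3 CPM in mT6, and these ranges overlapped. In mT69a control it was lower still, at 3.81 and 2.63 CPM, against 19.3 and 26.3 CPM in mT6 control. The change in line difference was -2.06 ± 0.27 (adjusted p = 0.0556 unpaired, 0.00211 paired). S100a4, a calcium-binding protein linked to cell motility, fell in mT69a from 21.8 and 23 CPM to 4.39 and 4.69 CPM, beside 5.14 and 6.93 CPM in mT6. Its change passed in the paired model (adjusted p = 0.0367) and not in the unpaired one (0.381).

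The wider group without a test of the change was larger. Of the 1661 genes parted in knockout, 60 (3.61%, or 0.427% of all tested) had a 95% interval within 2-fold with the vector. Without the second mT69a SPDEF-labelled library there were 23, without the first 38, without the second mT6 knockout library 101 and without the first mT69a knockout library 91. Pairing gave 136. Over all 14047 genes 6991 (49.8%) had such an interval. Of the 2023 genes parted in control, 305 (15.1%, or 2.17% of all tested) had such an interval with the vector, and 257 (12.7%) had it in knockout. The 305 became 197 or 182 without the first or second mT69a SPDEF-labelled library.

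Further genes narrowed without meeting. Ern2, the endoplasmic reticulum stress sensor of mucus-secreting cells, had 3.01 and 5.76 CPM in mT6 knockout and 0.108 and 0 CPM in mT69a knockout. Its levels with the vector were 24.7 and 43.0 CPM in mT6 and 15.7 and 20.0 CPM in mT69a. The lines did not overlap, and their difference of -0.92 ± 0.37 passed with pairing and not without (adjusted p = 0.00193 and 0.124). Its change passed in the paired model (adjusted p = 0.00184) and in DESeq2 (0.00678), and not in the unpaired one (0.261). Tspan12, a tetraspanin of Norrin and beta-catenin signalling, had 94.0 and 131 CPM in mT6 knockout and 7.10 and 9.83 CPM in mT69a knockout. With the vector it had 147 and 230 CPM in mT6 and 61.9 and 93.8 CPM in mT69a. The paired adjusted p of its change was 7.22e-05 and the unpaired one 0.25.

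Loxl4, a lysyl oxidase that crosslinks matrix collagen, narrowed from the other side. It had 10.7 and 12.2 CPM in mT6 knockout and 103 and 93.7 CPM in mT69a knockout, then 82.0 and 75.4 CPM in mT6 and 288 and 278 CPM in mT69a with the vector. It rose in both lines, further in mT6, and its line difference fell from 3.10 to 1.85 ± 0.13 (adjusted p of the change 0.0839 unpaired, 0.00656 paired). Loxl4 lies on chromosome 19, whose tested genes had a median line difference of 0.28. Gprc5b, an orphan receptor, and Angptl2, a secreted angiopoietin-like protein, likewise rose in both lines and kept higher levels in mT69a, with line differences of 1.91 and 2.30. Fbln2, a basement membrane glycoprotein, fell in mT69a from 27.0 and 21.1 CPM to 5.16 and 4.96 CPM and was at 1.52 and 0.704 CPM in mT6.

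Other line differences grew, by the paired model. Gcnt3, the mucin-type core branching enzyme, had 72.2 and 84.7 CPM in mT6 knockout and 79.0 and 78.7 CPM in mT69a knockout. In the SPDEF-labelled libraries it had 63.6 and 72.4 CPM in mT6 and 188 and 202 CPM in mT69a, so that overlapping lines no longer overlapped. The line difference with the vector was 1.52 ± 0.14 (adjusted p = 9.19e-05) against 0.01 in knockout, and the change had an adjusted p of 0.0556 unpaired and 0.000663 paired. In control Gcnt3 was also higher in mT69a, at 157 and 195 CPM against 88.6 and 88.7 CPM. Nlrc4, an inflammasome protein, rose in mT69a from 4.03 and 5.05 CPM to 18 and 22.1 CPM and stayed at 5.26 and 5.05 CPM in mT6. Its control levels, 12.4 and 18.2 CPM in mT69a and 21.6 and 16.6 CPM in mT6, showed no such gap.

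Isx, an intestine-specific homeobox factor, moved the other way, since it fell in both lines but further in mT6. It went from 34.2 and 45.1 CPM to 3.27 and 6.34 CPM in mT6 and from 64.8 and 73.1 CPM to 32.3 and 35.9 CPM in mT69a. Its line difference was -2.03 in control and 2.82 ± 0.29 with the vector, so the higher line was not the same in these comparisons. Isx lies on chromosome 8, whose tested genes had a median line difference of -0.33. Homer2, a postsynaptic scaffold protein, had 72.5 and 69.9 CPM in mT69a control against 1.90 and 2.75 CPM in mT6 control. With the vector the order was the opposite, 9.67 and 7.13 CPM in mT69a and 25.7 and 36.4 CPM in mT6. B4galnt3, a glycosyltransferase, rose in mT6 to 16.2 and 17.7 CPM and lay at 1.07 and 1.26 CPM in mT69a. Thrb, a thyroid hormone receptor, fell in mT69a to 2.14 and 2.44 CPM beside 5.73 and 11.3 CPM in mT6. Ccnd2, a D-type cyclin, fell in mT6 to 50.6 and 71.0 CPM and was at 192 and 212 CPM in mT69a. Paired adjusted p of the change were 0.0204 for Nlrc4, 0.00192 for Isx, 0.0245 for Homer2, 0.0367 for B4galnt3, 0.0245 for Thrb and 0.0347 for Ccnd2. Without pairing the lowest of these 6 was 0.106, for Nlrc4.

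**Figure D2:**
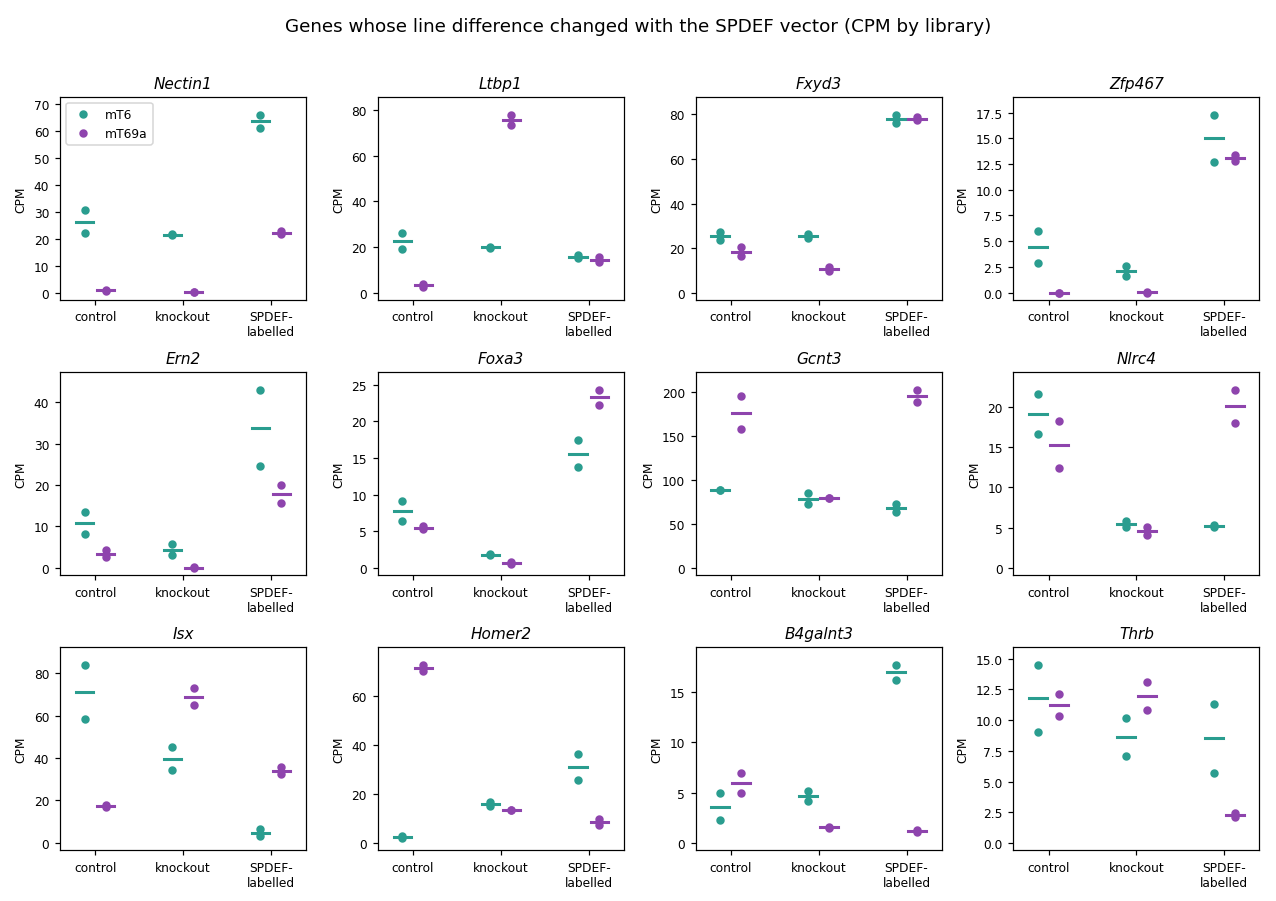
CPM in each library of 12 genes whose line difference changed with the vector in the model paired by replicate number. Points are libraries and bars are means of 2, with mT6 in green and mT69a in purple. Fxyd3 reaches 76.2 to 79.9 CPM in both lines with the vector, whereas Gcnt3 goes from overlapping knockout libraries to 188 and 202 CPM in mT69a against 63.6 and 72.4 CPM in mT6.

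The regulators and enzymes of goblet maturation differed in how close the lines came. Creb3l4, a membrane-bound factor of the secretory pathway, had 1.33 and 1.87 CPM in mT6 knockout and 0.914 and 0.783 CPM in mT69a knockout. It reached 77.9 and 84.8 CPM in mT6 and 65.9 and 68.6 CPM in mT69a with the vector. The line difference was then -0.27 (95% interval -0.58 to 0.04, adjusted p = 0.213), although it had been -2.01 in control (adjusted p = 9.19e-05). Creb3l1, a related factor, reached 30.3 and 43.2 CPM in mT6 and 23.1 and 17.7 CPM in mT69a from below 1 CPM in all 4 knockout libraries. Its difference of -0.84 ± 0.21 passed (adjusted p = 0.02), but not without the second mT6 (0.165), second mT69a (0.155) or first mT69a (0.0511) SPDEF-labelled library.

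Agr2, the protein disulfide isomerase that folds mucins, stayed far apart. It had 12.4 and 24.2 CPM in mT6 knockout and 0.323 and 0.348 CPM in mT69a knockout, then 107 and 243 CPM in mT6 and 5.64 and 7.58 CPM in mT69a with the vector. Thus it rose in both lines, and the lines still did not overlap. The line difference with the vector was -4.74 ± 0.58 (adjusted p = 0.00147), beside -5.76 in knockout and -2.96 in control. Foxa1, a forkhead pioneer factor, had 41.2 and 29.6 CPM in mT6 and 8.25 and 7.31 CPM in mT69a with the vector (log2 difference -2.18 ± 0.25, adjusted p = 0.000328). The difference was -2.00 in knockout and -2.47 in control. Agr2 and Foxa1 lie on chromosome 12, whose tested genes had a median line difference of -0.46 with the vector. Xbp1, the unfolded protein response factor that Ern2 can activate, had 173 and 227 CPM in mT6 and 81.4 and 88.6 CPM in mT69a. Its difference was -1.23 ± 0.16 (adjusted p = 0.000607).

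Of 13 mucin and trefoil genes tested 6 were lower in mT69a and 1 higher (6 and 3 with pairing). Unpaired calls covered 53.8% of them, beside 17.9% of all tested genes (30.4% with pairing). The list's median line difference was -1.07, beside -0.01 over all autosomal genes. Without either mT69a SPDEF-labelled library 4 were lower. Muc4, a membrane mucin, had 52.6 and 78.4 CPM in mT6 and 1.42 and 3.88 CPM in mT69a (log2 difference -4.70 ± 0.57, adjusted p = 0.00101). Muc5b, a gel-forming mucin, had 5.73 and 20.1 CPM in mT6 against 0.119 and 0 CPM in mT69a, where the summed counts gave a ratio of 180 with a counting interval of 49.2 to 1495. Muc2, the gel-forming mucin of intestinal goblet cells, had 10.9 and 67.5 CPM in mT6 and 0.356 and 0.812 CPM in mT69a. Its difference passed (adjusted p = 0.00726) but not without the first mT69a SPDEF-labelled library (0.0801). Muc1, a membrane mucin, differed less, with 414 and 436 CPM against 277 and 245 CPM (-0.70 ± 0.13, adjusted p = 0.00513), and that call was lost without the second mT69a SPDEF-labelled library (0.0656). Muc20 was the member higher in mT69a, with 4.98 and 4.33 CPM against 1.17 and 1.76 CPM.

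Of 20 goblet maturation genes tested, 6 were lower and 2 higher in mT69a with the vector, beside 9.29% and 8.61% of all tested genes. In knockout 12 were lower and 1 higher, where 12.7% of all tested genes were lower and 12.6% higher. The list's median line difference was -0.77 with the vector and -0.82 in knockout. The change passed for none of the 20 without pairing and for 2 with pairing. With pairing 10 were lower and 3 higher with the vector, and 4 were lower without either mT69a or the second mT6 SPDEF-labelled library. Clca1, a secreted component of goblet mucus, fell with the vector to 11.3 and 13.3 CPM in mT6 and 3.50 and 3.88 CPM in mT69a, and its difference of -1.74 ± 0.23 passed (adjusted p = 0.000756). Sytl2, a granule docking protein, was at 16.7 and 21.1 CPM in mT6 and 2.49 and 1.08 CPM in mT69a. Of 24 O-glycosylation genes, 5 were lower in mT69a and 2 higher, and 3 were lower without either mT69a SPDEF-labelled library. The lower ones included B3galt5, a galactosyltransferase (-4.47 ± 0.73, adjusted p = 0.00208), and Chst4, a sulfotransferase (-3.80 ± 0.40, adjusted p = 0.000133). The higher ones were Gcnt1 and Gcnt3, both core branching enzymes. Calls covered 29.2% of the 24 O-glycosylation genes, beside 17.9% of all tested genes. Chst4 lies on chromosome 8 and Gcnt1 on chromosome 19, with medians of -0.33 and 0.28. Of 30 folding genes 4 were called (9 with pairing), and of 35 genes of transport from the endoplasmic reticulum to the Golgi 5 were called (8 with pairing), beside 17.9% of all tested genes (30.4% with pairing). A 95% interval within 2-fold was found for 26 and 31 of them, beside 49.8% of all tested genes.

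**Figure D3:**
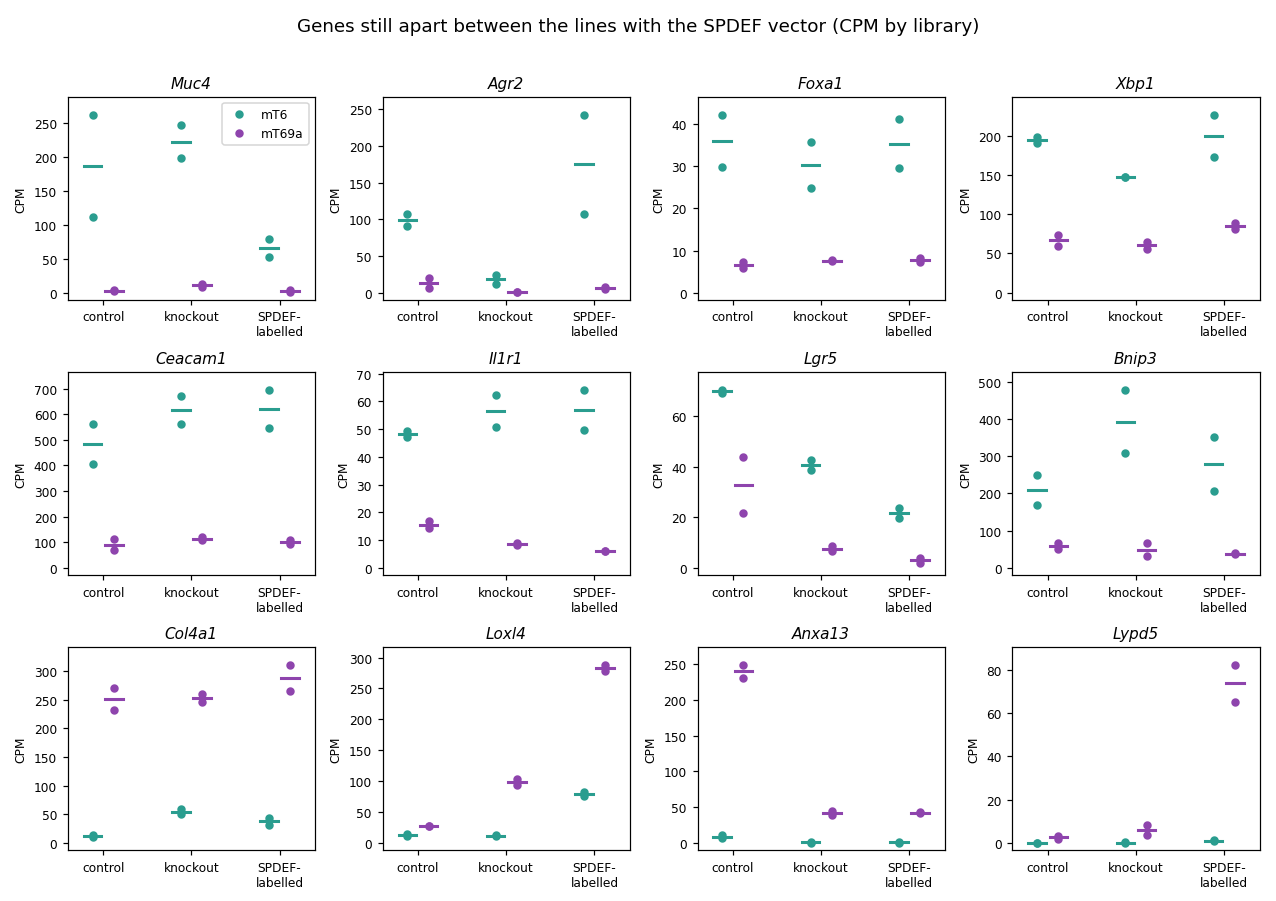
CPM in each library of 12 genes that remained parted between the lines with the vector. Points are libraries and bars are means of 2, with mT6 in green and mT69a in purple. Agr2 rises in both lines and stays at 107 and 243 CPM in mT6 against 5.64 and 7.58 CPM in mT69a, while Lypd5 and Loxl4 reach their highest levels in the SPDEF-labelled mT69a libraries.

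Among the 628 genes parted in all 3 conditions, the largest gaps at 10 CPM or more in the higher line were of genes nearly silent in the other. Ptprm, a receptor tyrosine phosphatase, had 22 and 24.6 CPM in mT69a and no counts in mT6, so it was at least 131-fold higher against a floor of 3 counts over the group. Abca12, a lipid transporter of keratinocytes, had 35.2 and 52.3 CPM in mT69a and 0 and 0.117 CPM in mT6. Tm4sf4, a tetraspan membrane protein, had 37.5 and 41.5 CPM against 0.117 and 0 CPM. Lypd5, a GPI-anchored Ly6 family protein, reached 82.2 and 65.3 CPM in mT69a and 1.29 and 0.939 CPM in mT6. In knockout it had 8.06 and 3.48 CPM in mT69a, and with the vector it was 12-fold higher there by summed counts (adjusted p = 0.00112). Tmem45a, Krt27, Zrsr1 and Sgsm1 completed the 8 largest differences on that side, with log2 values from 5.41 to 6.51.

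On the mT6 side, Kazn, a desmosome-associated protein, had 15.3 and 13.9 CPM in mT6 and no counts in mT69a, so it was at least 136-fold lower in mT69a. Snrpn, an imprinted splicing gene whose transcript also encodes Snurf and whose reads may be divided between the genes, had 14.0 and 12.7 CPM against no counts. Olfm4, a secreted marker of intestinal stem cells, had 40.1 and 46.8 CPM in mT6 and 0.297 and 0.180 CPM in mT69a. In mT6 it had 9.99 and 6.49 CPM in knockout, and its rise with the vector passed (adjusted p = 0.0132). Lypd2, another Ly6 family gene, fell with the vector to 14.5 and 14.2 CPM in mT6 and to 0 and 0.180 CPM in mT69a. Tex15, Cxcl1, Il1rl2 and Muc5b were the others. Cxcl1, a neutrophil chemokine, had 104 and 13.0 CPM in mT6 and its call (adjusted p = 0.0208) was lost without either mT69a SPDEF-labelled library (0.161 and 0.109) or the first mT6 one (0.0867).

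Highly expressed genes were parted too. Ceacam1, an adhesion molecule whose reads may be shared with the similar Ceacam2, had 696 and 546 CPM in mT6 and 93.3 and 109 CPM in mT69a. Its line difference was -2.62 ± 0.25 with the vector, -2.44 in knockout and -2.42 in control. Ly6e, a GPI-anchored protein, had 1140 and 1049 CPM against 547 and 521 CPM. Prom1, the membrane protein CD133, had 699 and 1086 CPM against 418 and 426 CPM (adjusted p = 0.00845), a call lost without either mT69a SPDEF-labelled library (0.0739 and 0.0581) or the second mT6 one (0.0547). Tinagl1, a matrix protein, was higher in mT69a, with 363 and 298 CPM against 120 and 104 CPM. It had 195 and 172 CPM in mT69a knockout and 70.8 and 53.4 CPM in mT6 knockout, so both lines were higher with the vector while the difference stayed at 1.56 (1.57 in knockout).

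Of 30 basement membrane and integrin genes tested 12 were higher in mT69a and 4 lower, with a median of 0.80, and 9 to 13 were higher with 1 library left out. Calls covered 53.3% of these 30 genes and 60% of the claudins below, beside 17.9% of all tested genes. Col4a1, a chain of type IV collagen, had 266 and 311 CPM in mT69a and 44.1 and 30.9 CPM in mT6 (log2 difference 2.94 ± 0.20, adjusted p = 1.76e-05). Its chromosome neighbour Col4a2 differed by 2.69 ± 0.28. Both lie on chromosome 8, where the median difference had the opposite sign (-0.33). Col18a1, a basement membrane collagen, had 210 and 240 CPM in mT69a and 37.4 and 39.9 CPM in mT6, a difference of 2.54 ± 0.14. In control it was -0.15 (adjusted p = 0.456). Lama3, a laminin chain, was lower in mT69a (-2.72 ± 0.54, adjusted p = 0.00844). It lost its call without either mT69a SPDEF-labelled library (0.0901 and 0.0521) or the first mT6 one (0.0514). Of 10 claudins, the seal-forming proteins of tight junctions, 5 were higher and 1 lower, and 3 were higher without either mT69a or the second mT6 SPDEF-labelled library.

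Subtype genes split both ways. Unpaired calls covered 43.8% of classical-subtype and 54.5% of basal-like genes, beside 17.9% of all tested genes (30.4% with pairing). Of 32 classical-subtype genes 9 were lower and 5 higher in mT69a, and with pairing 9 were lower and 9 higher. Without either mT69a SPDEF-labelled library 4 were lower, and without the first mT6 one 5. Of 22 basal-like genes 8 were higher and 4 lower. Without the first or second mT69a or the second mT6 SPDEF-labelled library 3, 2 and 2 were higher, and without the first mT6 one 8 were higher and none lower. Ctse, a gastric-type protease of the classical list, had no counts in mT6 and 5.46 and 4.96 CPM in mT69a, at least 30.0-fold higher. Aldh1a1, a retinal dehydrogenase of the same list, had 60.0 and 47.5 CPM in mT69a and 2.57 and 1.64 CPM in mT6 (4.67 ± 0.25, adjusted p = 3.19e-06). In control its difference was 0.30. It lies on chromosome 19, with a median of 0.28. Il1rn, the interleukin-1 receptor antagonist of the basal-like list, had 69.5 and 56.6 CPM in mT69a and 10.9 and 8.45 CPM in mT6. Of 12 epithelial-mesenchymal transition genes tested, out of 35, 3 were higher in mT69a (Timp3, Col4a1 and Col4a2) and none lower. These 3 are 25% of the 12.

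In the unpaired model with all libraries, calls in each metabolic and cell cycle list went in 1 direction. They covered 35.7% of cholesterol and fatty acid, 24% of glycolysis and hypoxia and 12.5% of cell cycle genes. Over all tested genes the share was 17.9% (30.4% with pairing). Of 28 cholesterol and fatty acid genes 10 were higher in mT69a and none lower, with a median of 0.38, and 18 were higher with libraries paired. Without the first or second mT69a SPDEF-labelled library 2 and 3 were higher, and without the first mT6 one 6. Cyp51, a sterol demethylase, had 346 and 363 CPM in mT69a and 186 and 242 CPM in mT6 (0.73 ± 0.15, adjusted p = 0.00734). Of 25 glycolysis and hypoxia genes 6 were lower and none higher (median -0.46), and with pairing 12 were lower and 1 higher. With 1 library left out 4 to 8 were lower. Bnip3, a mitophagy receptor induced by hypoxia, had 352 and 207 CPM in mT6 and 36.6 and 39.1 CPM in mT69a (-2.89 ± 0.40, adjusted p = 0.0019). Egln3, an oxygen-sensing prolyl hydroxylase, had 783 and 353 CPM against 125 and 99.1 CPM, and lies on chromosome 12 with its median of -0.46. Of 32 cell cycle genes 4 were higher and none lower, and with pairing 12 and none. Without either mT69a or the second mT6 SPDEF-labelled library 2 were higher. The median line difference of the 32 cell cycle genes was 0.23, and 29 had a 95% interval within 2-fold, beside 49.8% of all tested genes.

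**Figure D4:**
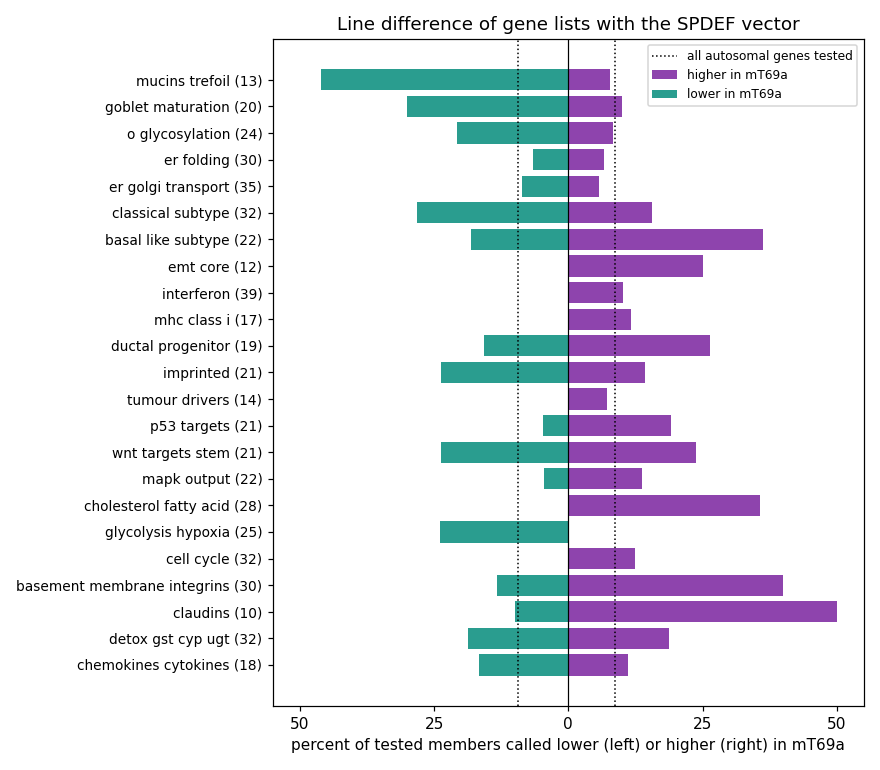
Percent of the tested members of each list called lower (left, green) or higher (right, purple) in mT69a with the vector, with the number tested in brackets. Dotted lines are the shares over all autosomal genes tested, 9.29% lower and 8.61% higher. Mucins have 6 of 13 lower and cholesterol and fatty acid genes 10 of 28 higher.

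Of 21 Wnt target and stem cell genes 5 were higher and 5 lower, and with pairing 6 and 9. Without the first mT69a SPDEF-labelled library 3 were higher and 2 lower. Lgr5, a stem cell receptor, had 19.7 and 23.6 CPM in mT6 and 2.08 and 4.06 CPM in mT69a (-2.86 ± 0.37, adjusted p = 0.000888). Of 39 interferon genes 4 were higher in mT69a and none lower, and the other 35 did not pass, although the list's median was 1.97. This count rested on single libraries: none passed without the first mT69a or either mT6 SPDEF-labelled library and 2 without the second mT69a one, whereas 27 or 28 were higher without the first or second mT69a knockout library. The list's summed level was 941 and 184 CPM in the mT69a knockout pair, against 512 and 361 CPM in mT69a and 187 and 184 CPM in mT6 with the vector. In control the list's median line difference was -1.23. Of 17 MHC class I genes Tap1 and H2-M3 were higher (4 with pairing), and H2-M3 lost its call in 11 of 12 fits that left out 1 library (adjusted p of up to 0.228). Of 21 p53 targets 4 were higher and 1 lower, with pairing 6 and 2, and 2 were higher without the first mT69a or second mT6 SPDEF-labelled library. Of 22 MAPK output genes 3 were higher and 1 lower, with pairing 7 and 1, and without the first or second mT69a or the second mT6 SPDEF-labelled library 0, 2 and 1 were higher. Of 14 tumour driver genes Ccnd1, the G1 cyclin, was called (0.89 ± 0.17, adjusted p = 0.00593), a call lost without the first mT69a SPDEF-labelled library (0.0533). With pairing 4 of the 14 were higher and 2 lower. Unpaired calls covered 47.6% of the Wnt, 23.8% of the p53 and 18.2% of the MAPK list. They covered 11.8% of the MHC class I, 10.3% of the interferon and 7.14% of the driver list. Over all tested genes the share was 17.9% (30.4% with pairing). In control 13 of the 17 MHC class I genes were lower in mT69a and none higher, where 28.2% of all tested genes were called. That list's median line difference was -1.81 in control, 0.27 in knockout and 0.10 with the vector.

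The remaining lists also split. Unpaired calls covered 42.1% of ductal and progenitor, 38.1% of imprinted, 37.5% of detoxification and 27.8% of chemokine and cytokine genes. Over all tested genes the share was 17.9% (30.4% with pairing). Of 19 ductal and progenitor genes 5 were higher and 3 lower in mT69a. Anxa13, an apical membrane annexin, had 43.0 and 41.8 CPM in mT69a against 0.467 and 0.939 CPM in mT6 (5.90 ± 0.44, adjusted p = 4.39e-06). Hoxa13, a posterior homeobox factor, was 1 of 2 Hox genes tested, with 12 and 13.3 CPM in mT6 and 0.178 and 0.451 CPM in mT69a. Of 21 imprinted genes 3 were higher and 5 lower, and with pairing 3 and 8. Detoxification genes had 6 of 32 higher and 6 lower, with pairing 8 and 10, and with 1 library left out 3 to 6 higher and 1 to 6 lower. Of 18 chemokine and cytokine genes 2 were higher and 3 lower. The marker lists covered epithelial, acinar, tuft, enteroendocrine, fibroblast, immune and endothelial cells. Of their 15 members tested 2 were called, beside 17.9% of all tested genes. Pairing gave 5 calls, beside 30.4%, and added 2 epithelial genes and the enteroendocrine one. The 2 unpaired calls were both higher in mT69a: the tuft gene Avil and the endothelial gene Tie1, at most 3.07 CPM in any SPDEF-labelled library. Avil lost its call without the second mT6 SPDEF-labelled library (adjusted p = 0.0508), and Tie1 without the first mT69a (0.158) or either mT6 one (0.0871 and 0.0946). Their part in other differences was not tested.

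Neighbouring genes differed in the same direction at several sites. On chromosome 1 (40225080 to 40630725, GRCm38) the adjacent tested genes Il1r1, Il1rl2, Il18r1, Il18rap and Slc9a4 were all lower in mT69a. The first 4 are receptors of the interleukin-1 family and Slc9a4 is a sodium-proton exchanger. Il1r1 had a line difference of -3.24 ± 0.17 with the vector, -2.70 in knockout and -1.63 in control. On chromosome 7 (132235780 to 132813886) Chst15, Oat, Lhpp and Fam53b were higher in mT69a, with Oat, a mitochondrial aminotransferase, at 184 and 151 CPM against 51.5 and 49.2 CPM. On chromosome 17 (66336982 to 67354457) the higher run held Mtcl1, Rab12, Themis3 and Ptprm.

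Whole chromosomes were shifted too. The median line difference with the vector was -0.46 on chromosome 12, -0.33 on chromosome 8 and 0.28 on chromosome 19. The same medians in knockout were -0.48, -0.36 and 0.19, and in control -0.01, -0.34 and -0.12. So chromosome 8 was lower in mT69a in each condition, and chromosome 12 in both comparisons of knockout clones but not in control. Of 565 tested genes on chromosome 12, 69 were parted lower and 15 higher. After subtracting each chromosome's median 2182 genes were called in place of 2514. DNA copy number was not measured here, and its part in these shifts was not tested.

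**Figure D5:**
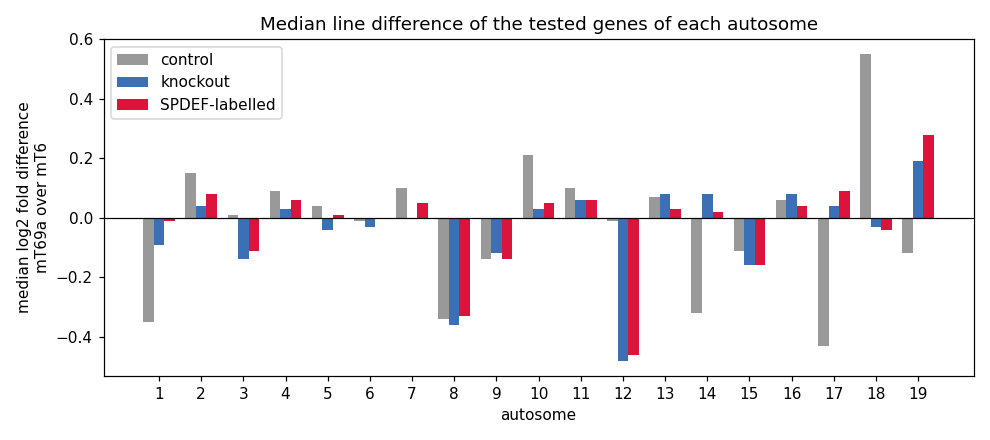
Median log2 difference between the lines (mT69a over mT6) of the tested genes of each autosome, in control (grey), knockout (blue) and SPDEF-labelled libraries (red). Chromosome 12 is at -0.46 with the vector and -0.48 in knockout but -0.01 in control, and chromosome 8 is negative in all 3.

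Upstream sequence was searched for CCGGAT, which holds the GGAT core that SPDEF prefers, and for the general ETS core CCGGAA, on both strands of the 250 bases before the RefSeq start (GRCm38.p6). CCGGAT was found in 4.94% of 32851 promoters and in 7.81% of those of tested genes. CCGGAA was found in 12% and 22.1%. Of 85 named genes 60 matched the promoter table, and 3 of them held CCGGAT (Lypd5, Loxl4 and Mgat4c) and 6 held CCGGAA. The 6 were Pld1, Ephb2 and Ltbp1, grouped above as brought together, and Kazn, Cxcl1 and Snrpn, which stayed parted. The 60 genes had 79 promoters, and Mgat4c, Pld1, Ltbp1, Kazn and Snrpn did not match in all of theirs. The shares above count promoters and these numbers count genes, so they show no excess of matches among the named genes. The sequences shown are thus examples, and genes whose lines met did not all lack a match. Lypd5 and Loxl4 are shown because both stayed parted and reached their highest level in the SPDEF-labelled mT69a libraries, with the match in capitals, and Fxyd3, without either match, because its lines met. These are windows at chr7:24348946-24349195 (plus strand), chr19:42612807-42613056 (minus strand) and chr7:31076698-31076947 (minus strand), each 5′ to 3′. A match is a string of letters and not a measured binding site.
Lypd5: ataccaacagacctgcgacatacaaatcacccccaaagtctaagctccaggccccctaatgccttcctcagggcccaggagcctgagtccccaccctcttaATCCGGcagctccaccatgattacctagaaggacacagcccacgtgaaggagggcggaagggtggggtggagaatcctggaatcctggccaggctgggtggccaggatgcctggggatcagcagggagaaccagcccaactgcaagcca
Loxl4: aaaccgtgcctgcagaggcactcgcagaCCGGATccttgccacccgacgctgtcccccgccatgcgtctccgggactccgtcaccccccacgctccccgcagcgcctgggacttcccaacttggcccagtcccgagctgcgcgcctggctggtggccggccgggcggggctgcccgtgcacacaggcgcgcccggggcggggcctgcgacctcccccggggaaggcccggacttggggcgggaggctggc
Fxyd3: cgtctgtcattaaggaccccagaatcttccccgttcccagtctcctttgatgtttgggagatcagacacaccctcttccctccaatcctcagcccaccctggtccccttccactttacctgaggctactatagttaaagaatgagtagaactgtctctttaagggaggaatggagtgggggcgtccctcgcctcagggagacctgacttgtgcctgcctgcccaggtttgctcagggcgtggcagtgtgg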

How the data were processed

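RNA was measured in 12 libraries, 2 in each of 6 groups. Per the submitters' processing notes, the tools were FastQC 0.11.8, STAR 2.5.2b and RSEM 1.3.0 and the build was GRCm38.p6. Per the file headers, the authors deposited expected counts and TPM per gene, and the expected counts were rounded to whole numbers for each test. Symbols and positions come from GENCODE M21, which matched 53620 of 53715 identifiers. Totals ran from 9094295 to 28903831 counts, and intervals and floors (3 counts) cover counting error only.

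A fit in edgeR 4.0.16 (quasi-likelihood, robust, filterByExpr, TMM factors 0.839 to 1.20) gave each of the 6 groups a mean over 14473 genes, with 6 residual degrees of freedom. Adjustment ran over all of them, and then genes of X, Y and the mitochondrial genome were left out. Log2 differences are fitted, and standard errors come from the fit's weights and moderated dispersion; CPM uses TMM-scaled library sizes. Tests are two-sided. Scripts were tested on simulated data. Samples with the same replicate number deviated together, since all 15 correlations between groups of the difference between library 1 and library 2 lay between 0.205 and 0.531. The numbers were therefore read as pairing the libraries, and a fit with the replicate number as a block is given beside results whose call it changes or whose count it moves by over 1.5 times.

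Members, lists, tests and the rule for named genes were chosen with earlier results of these data known. The rule took protein-coding genes: 9 goblet and subtype genes, the largest and most expressed differences in each class, and 3 members per list by adjusted p. Genes whose change passed with the block, the group within 2-fold without a test of the change and the runs of neighbours were added after seeing the data, as were Gm27177 and the members named from lists beyond these 3. Krt17 of the rule had too few counts to be tested and Gata6 had 0.178 CPM at most in SPDEF-labelled libraries. Runs of neighbours that held mostly predicted genes are not described, and a few withheld items are not reported here. Alternatives used DESeq2 1.42.0 and limma 3.58.1 on log2(TPM + 1) and log2(TPM + 0.1), in R 4.3.3 and Python 3.11.15.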

Additional observations from a re-analysis of the deposited data

Results flagged for a closer look

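The line difference of 2 genes changed between knockout and SPDEF-labelled libraries by edgeR's test of the difference between those contrasts. For Nectin1 the change was 4.62 on the log2 scale, and for Gm27177 it was 3.83. No cause was tested.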

How the results depend on the processing

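Normalization by DESeq2 size factors and a stricter count filter kept each count of calls within 1.5 times. For the line difference with the vector (2514 genes), the replicate block gave 4269, the 4 SPDEF-labelled libraries alone 1565, log2(TPM + 1) 819, log2(TPM + 0.1) 873 and log2(TPM + 1) without a filter 759. In the same order of TPM settings, knockout (3564) gave 1102, 1139 and 903, control (3959) gave 1343, 1439 and 1276, and genes parted in knockout and with the vector (978) gave 433, 549 and 306. Knockout gave 5526 with the replicate block. The change in line difference (2 genes) gave 55 with the replicate block, 45 with DESeq2, 192 without a count filter, and 0 with log2(TPM + 0.1) and 24 with unfiltered TPM. Genes brought to a similar level (1) numbered 11 with the block, 5 with DESeq2, 31 without a count filter, 5 with unfiltered TPM and 0 with either filtered TPM setting or a 1.5-fold margin. Narrowed genes (1) numbered 23 with the block, 13 with DESeq2, 45 without a count filter and 0 with each TPM setting. Reversed genes (0) numbered 3 with the block and 11 without a count filter. Newly parted genes (0) numbered 6 with the block, 6 with DESeq2, 12 without a count filter, 4 with unfiltered TPM and 3 with log2(TPM + 1). Filtered TPM put the median of all genes at 0.09 and 0.10 in knockout and at -0.10 and -0.11 in the change. Genes parted in knockout and within 2-fold with the vector (60) numbered 136 with the block, 105 without a count filter, 111 with a 90% interval, 30 with log2(TPM + 0.1) and 4 with a 1.5-fold margin. The converse group (36) numbered 61, 62, 51, 19 and 2 in that order. Genes parted in control and within 2-fold with the vector (305) numbered 143 with log2(TPM + 0.1) and 44 with a 1.5-fold margin. The cause was not tested.

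Leaving out 1 library gave 909 to 2441 genes for the line difference with the vector, 1849 to 3816 in knockout, 1971 to 4228 in control, and 0 to 4 for the change. It gave 571 to 981 genes parted in both, 0 to 3 brought to a similar level, 0 to 1 narrowed, 0 to 1 newly parted, 0 to 1 reversed, and 23 to 101, 24 to 78 and 182 to 375 for the groups within 2-fold. Among the 155 single genes followed, no called line difference with the vector turned its direction under these alternatives. With other settings 147 values lost the threshold, 25 gained it and 1353 kept their side. With the replicate block 13 of those line differences gained a call, Ern2, Foxa3, Lrig1, Ephb2 and Cpne2 among them, and none lost one. Depth limits low genes most: 209 of the 1291 parted genes had a group at 3 counts or fewer with the vector.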
